A study of Mus musculus with 29 samples.

Results

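The response of the mouse intestine to loss of Rnaseh2b alone was compared with the response to loss of Rnaseh2b and p53 together. The contrast was the difference of 2 differences: the change in adjacent tissue of H2B/p53dIEC mice against H2B/p53flox/flox tissue, minus the change in crypts of H2BdIEC mice against H2B flox/flox crypts. It used 16 of the 29 libraries of the series, 4 per group, and the 47469 Ensembl genes counted in both sets. A positive interaction means that a gene was higher, relative to its own controls, in tissue with both deletions than in crypts with the Rnaseh2b deletion alone.

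H2B in the genotype names was read as Rnaseh2b, from the subject of the series and from the counts below. The crypt groups were isolated epithelial crypts of H2B flox/flox mice (controls) and H2BdIEC mice, all C57BL/6 and 52 weeks old. The tissue groups were pieces of intestine, labelled as adjacent and normal in both groups, of H2B/p53flox/flox mice (controls) and of tumor-bearing H2B/p53dIEC mice, also C57BL/6, with no age in the labels. The driver of the deletion is not given in the sources used here. Controls of both sets carry floxed alleles. No group had p53 deleted alone, so the tissue side holds the effects of both deletions. The status of p53 cannot be told apart from whole tissue against crypts, from the 2 sets of files or from age. Nor can it be told apart from the region of intestine sampled, whose markers differed between controls of the sets. The balance of sexes also differed between the sets. Values for region and sex are given below. Each library has its own number in its title, by which it is named here.

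RNase H2 removes ribonucleotides that polymerases leave in DNA, and RNASEH2B is a subunit without which the enzyme is not made in stable form. Cells that lack it accumulate DNA lesions and small fragments of nuclear DNA in the cytosol. p53, encoded by Trp53, is a transcription factor that is stabilised by DNA damage and raises genes of cell cycle arrest, cell death and metabolism. Cytosolic DNA is sensed by cGAS and STING, which raise interferons, and interferons raise a set of antiviral genes through STAT2 and IRF9.

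Crypt libraries held 15545059 to 25913155 gene counts and tissue libraries 22370148 to 41504298, except tissue control 1320 with 401365. Levels of gene lists are given as mean log2 CPM (counts scaled to a common library size with TMM factors). The 11 tested smooth muscle markers were at -1.61 to 0.99 in crypts and 7.15 to 8.67 in tissue, as the labels imply. The 15 pan-epithelial genes were at 8.70 to 9.15 in crypts and 9.15 to 9.65 in tissue. They were thus not lower in whole tissue than in isolated crypts, and the reason was not tested. Among tissue libraries, H2B/p53dIEC 1323 had a distal small intestine marker level of 5.86 against 8.59 to 8.95 in the other 7. By Xist against Y-linked genes, 3 crypt controls, 2 H2BdIEC crypts, 0 tissue controls and 1 H2B/p53dIEC tissue were male.

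Rnaseh2b (ENSMUSG00000021932, GRCm38 chromosome 14, 62292589 to 62372992, plus strand) was lower in both deleted groups. Its level was 7.52, 8.21, 15.2 and 15.4 CPM in control crypts and 2.26, 2.71, 2.84 and 2.93 CPM in H2BdIEC crypts. Tissue controls read 10.8, 11.2, 11.8 and 20.1 CPM, and H2B/p53dIEC tissue 2.10, 3.41, 3.84 and 4.56 CPM. The groups did not overlap in either set. The log2 change was -2.11 ± 0.29 (SE) in crypts and -1.81 ± 0.29 in tissue (adjusted p = 0.000547 and 0.00214, edgeR's quasi-likelihood test, Benjamini-Hochberg adjusted over all genes). The interaction was 0.30 ± 0.40 (adjusted p = 0.726), so the fall in whole tissue was not told apart from that in crypts.

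Trp53 (ENSMUSG00000059552, chromosome 11, 69580359 to 69591873, plus strand) read 29.99 to 33.8 CPM in control crypts and 21.3 to 31.0 CPM in H2BdIEC crypts, which overlapped. In tissue it read 32.7, 38.0, 38.0 and 41.3 CPM in controls and 11.6, 16.6, 20.2 and 23.7 CPM in H2B/p53dIEC mice, with no overlap. The tissue change of -1.06 ± 0.18 passed the test (adjusted p = 0.00294) and the crypt change of -0.31 ± 0.17 did not (adjusted p = 0.359). Their difference was -0.75 ± 0.25 (adjusted p = 0.0926), and it passed the test in 4 of 28 alternative fits: limma voom (adjusted p = 0.00664), the proximal marker level as a covariate (0.0171), and without mutant 1323 alone (0.0306) or with tissue control 1320 also left out (0.0398). Whole tissue also holds cells outside the epithelium, whose Trp53 counts enter these values.

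Over the 17697 genes tested, 521 had a higher interaction (2.94% of genes tested) and 429 a lower one (2.42%). Scaled by 15 pan-epithelial genes instead, the split was 227 higher and 632 lower, and the median interaction of all genes moved from 0.08 to -0.09. Leaving out 1 library gave 214 to 582 higher and 169 to 556 lower, fewest without crypt control Crypt_972. In crypts alone 328 genes rose (1.85%) and 330 fell (1.86%), and in tissue 954 rose (5.39%) and 754 fell (4.26%). Of the 328 that rose in crypts, 50 also rose in tissue (5.39% of all genes did), 11 fell there (4.26% of all genes) and 267 were not called there. Of the 330 that fell in crypts, 19 also fell in tissue (4.26% of all genes) and 14 rose (5.39%). Across genes, the crypt and tissue log2 changes had a Pearson r of 0.112 and a Spearman rho of 0.0656 (17697 genes, which are not independent replicates). An interaction call came from several sources: of the 429 lower, 239 were called in tissue and not in crypts, 95 in crypts and not in tissue, and 83 in neither.

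**Figure D1:**
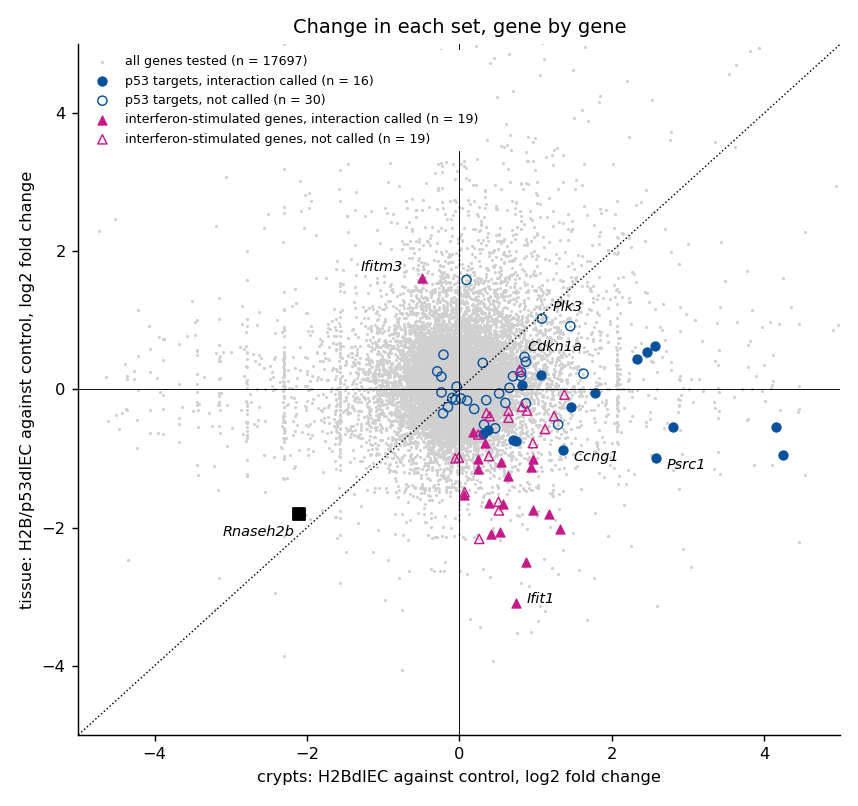
Each point is a gene, with its log2 fold change in crypts (horizontal) and in tissue (vertical). On the dotted line both changes are equal. Grey points are all 17697 genes tested, of which 62 lie beyond the limits of 5 on either axis. Blue circles are p53 targets and pink triangles are interferon-stimulated genes, filled where the interaction was called. Filled symbols lie below the dotted line, apart from Ifitm3.

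Targets of p53 were higher in crypts without Rnaseh2b and not in tissue without Rnaseh2b and p53. Of 46 targets tested, 20 rose and 0 fell in crypts, with a median log2 change of 0.70 against -0.03 over all genes tested. In tissue 1 rose and 4 fell, with a median of -0.09 against 0.04 over all genes (0.04 for the targets under pan-epithelial scaling). In the interaction 0 were higher and 16 lower, 39 of 46 had a negative value, and the median was -0.63 against 0.08 over all genes. The mean log2 CPM of the list was 3.35 to 3.51 in control crypts, 4.26 to 4.36 in H2BdIEC crypts, 3.36 to 3.65 in tissue controls and 3.49 to 3.64 in H2B/p53dIEC tissue. The H2BdIEC crypts thus stood apart from crypt controls, and the tissue groups overlapped.

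Some of these genes hold letters that match the p53 response element, a pair of decamers bound by p53, near their start. Promoters from RefSeq (GRCm38.p6, 250 bases before to 50 after the start) were searched on both strands for 2 adjoining decamers with at most 3 mismatches in 20 bases and an intact C and G core in each. The search was added after the values were seen. Stretches before the start are shown for 3 targets with a lower interaction (Ccng1, Bbc3 and Sesn1) and for Cdkn1a, whose interaction was not called. Capitals mark the element, which lies 195 to 176 bases before the start of Ccng1 (chr11:40755432-40755511, minus strand, 1 mismatch), 97 to 78 before that of Bbc3 (chr7:16309456-16309535, plus strand, 3 mismatches), 173 to 154 before one of Sesn1 (chr10:41887236-41887315, plus strand, 3 mismatches) and 51 to 32 before one of Cdkn1a (chr17:29090898-29090977, plus strand, 1 mismatch).
Ccng1: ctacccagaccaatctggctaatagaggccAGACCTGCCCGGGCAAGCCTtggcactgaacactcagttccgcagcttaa
Bbc3: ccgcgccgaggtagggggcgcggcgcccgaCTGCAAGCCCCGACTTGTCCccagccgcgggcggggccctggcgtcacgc
Sesn1: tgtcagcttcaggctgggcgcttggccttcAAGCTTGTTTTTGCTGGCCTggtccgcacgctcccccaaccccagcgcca
Cdkn1a: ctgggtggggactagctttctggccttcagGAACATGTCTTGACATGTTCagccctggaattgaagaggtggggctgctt
An element was found in 221 of 12157 tested genes with a promoter (1.82%), in 3 of 12 p53 targets with a lower interaction (Ccng1, Bbc3 and Sesn1) and in 6 of the other 22 targets. A match is a description of these letters and not a measured site.

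Among 13 targets of cell cycle arrest and growth control, 8 rose in crypts and 6 were lower in the interaction. Ccng1, which encodes cyclin G1 (chromosome 11, 40748552 to 40755311), moved in opposite directions. It read 76.9, 80.0, 83.0 and 108 CPM in crypt controls and 175, 226, 231 and 257 CPM in H2BdIEC crypts. In tissue it read 65.6, 85.0, 86.2 and 91.8 CPM in controls and 37.9, 43.1, 45.5 and 49.5 CPM in H2B/p53dIEC mice. No library of a deleted group lay within the range of its controls. The log2 change was 1.35 ± 0.15 in crypts, -0.88 ± 0.15 in tissue and -2.24 ± 0.21 in the interaction (adjusted p = 6.69e-05, 0.00281 and 6.19e-05).

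Zmat3, an RNA-binding zinc finger protein, rose in crypts from 15.2, 15.7, 16.1 and 17.2 to 38.6, 40.5, 48.4 and 49.3 CPM. Its tissue groups overlapped, at 24.02 to 31.3 CPM in controls and 15.6 to 24.3 CPM in mutants, and the interaction was -1.72 ± 0.20 (adjusted p = 0.000321). Psrc1, which encodes a spindle protein, rose in crypts from 2.68 to 6.44 CPM in controls to 24.9 to 32.9 CPM, a log2 change of 2.57 ± 0.28 (adjusted p = 7.17e-05). In tissue it read 2.08, 2.98, 3.02 and, in the shallow library 1320, 8.95 CPM in controls and 0.910 to 1.82 CPM in mutants, and the interaction was -3.56 ± 0.42 (adjusted p = 0.000355). Tissue thus lacked the rise of both genes.

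Phlda3, an inhibitor of AKT, was low in crypt controls (0.276 to 1.497 CPM) and at 11.1 to 17.0 CPM in H2BdIEC crypts. Its tissue levels of 3.48 to 15.7 CPM in controls and 1.70 to 5.61 CPM in mutants overlapped, and the interaction was -4.70 ± 0.66 (adjusted p = 0.00159). The noncoding RNA genes Trp53cor1 and Pvt1 had interactions of -5.20 ± 0.72 and -1.92 ± 0.42 (adjusted p = 0.00124 and 0.0171). Trp53cor1 rested on 1 to 3 counts per library in crypt controls, 19 to 27 in H2BdIEC crypts and 0 to 10 in tissue. Not every arrest gene followed. Plk3, a stress kinase, rose in both sets, from 6.47 to 11.6 CPM to 16.1 to 21.7 CPM in crypts and from 13.3 to 20.04 CPM to 21.3 to 42.1 CPM in tissue (interaction -0.06 ± 0.32, adjusted p = 0.969). Cdkn1a, the p21 inhibitor of cyclin-dependent kinases, read 59.4 to 74.6 and 91.6 to 117 CPM in crypts and 337 to 425 and 301 to 627 CPM in tissue. Its crypt change of 0.70 ± 0.20 missed the threshold (adjusted p = 0.0559), as did its interaction of -0.51 ± 0.28 (adjusted p = 0.296).

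Among 14 targets of cell death, 4 rose in crypts and 3 were lower in the interaction. Eda2r, a receptor of the tumor necrosis factor receptor family, read 1.38 to 3.04 CPM in crypt controls and 12.6, 13.1, 15.3 and 17.4 CPM in H2BdIEC crypts. In tissue it stayed under 1 CPM in all 8 libraries, and the interaction was -3.35 ± 0.42 (adjusted p = 0.000692). Bbc3, which encodes PUMA, read 3.04 to 3.62 and 4.46 to 6.48 CPM in crypts and 5.03 to 11.2 and 3.72 to 5.27 CPM in tissue. Neither side of Bbc3 passed the test alone (adjusted p = 0.0989 and 0.0578), while the interaction of -1.45 ± 0.33 did (adjusted p = 0.0200). Bax, an effector of mitochondrial cell death, rose by 0.82 ± 0.13 in crypts and had an interaction of -0.75 ± 0.19 (adjusted p = 0.0307). Fas, Pmaip1, Perp and Apaf1 were called in none of the 3 contrasts.

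Among 11 targets of metabolism and stress, 7 rose in crypts, 6 were lower in the interaction and all 11 had a negative interaction value. Dglucy, which encodes D-glutamate cyclase, rose in crypts from 69.3, 80.5, 86.7 and 112 to 132, 147, 150 and 154 CPM. It fell in tissue from 26.2, 33.6, 39.1 and 40.8 to 16.3, 20.4, 23.3 and 23.9 CPM, so the groups of each set did not overlap (interaction -1.49 ± 0.24, adjusted p = 0.00333). Ephx1 (an epoxide hydrolase, -1.93), Gdf15 (a stress cytokine, -1.82), Ddit4l (-1.89), Dcxr (-0.86) and Sesn1 (sestrin 1, -0.97) were the others called. Sesn1 did not pass the test in crypts (0.31 ± 0.15, adjusted p = 0.275) and fell in tissue (-0.65 ± 0.15, adjusted p = 0.0151). Of 5 repair targets Rrm2b was lower in the interaction (-0.95 ± 0.25, adjusted p = 0.0326). The interactions of the 3 feedback genes missed the threshold, at 0.19 ± 0.25 for Ppm1d and -0.11 ± 0.14 for Cop1. Mdm2, the ubiquitin ligase of p53, read 54.0 to 72.9 and 86.2 to 118 CPM in crypts and 42.5 to 56.9 and 34.3 to 69.9 CPM in tissue (-0.63 ± 0.26, adjusted p = 0.164).

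The list was chosen for known regulation by p53, and its rise in crypts was known when this contrast was chosen. The 16 lower calls became 10 without tissue control 1321, and in a fit of the tissue set alone 1 target fell and 0 rose.

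**Figure D2:**
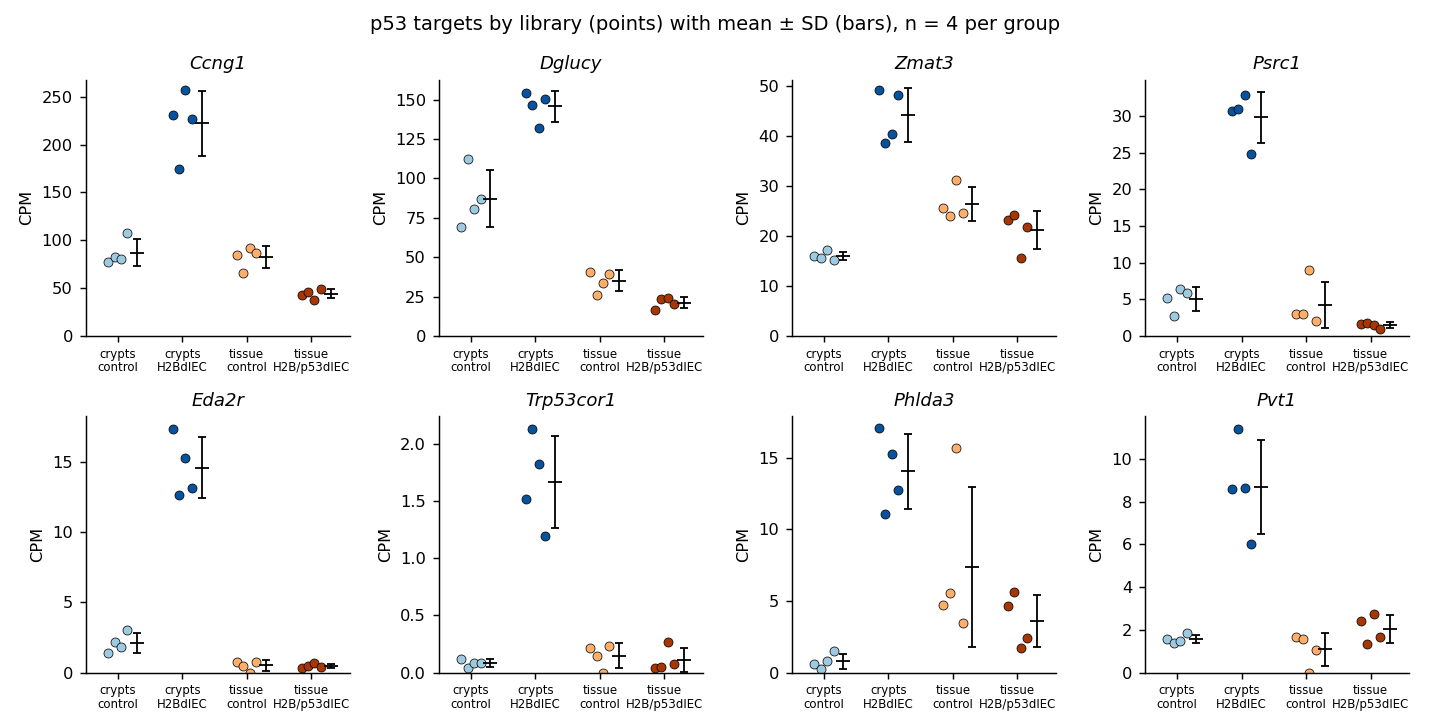
Levels in CPM of 8 p53 targets in the 16 libraries. Points are libraries, and bars to their right are the mean ± SD of 4 libraries. In crypts the H2BdIEC points lie above all control points for each of the 8 genes, and in tissue only Ccng1, Dglucy and Psrc1 have all H2B/p53dIEC points below all controls.

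Interferon-stimulated genes also differed between the sets. Of 38 tested, 1 rose and 0 fell in crypts, with a median log2 change of 0.54 and 35 positive values. In tissue 1 rose and 21 fell, with a median of -1.01. How the difference divided between the sides varied with the fit: 15 rose in crypts and 16 fell in tissue under pan-epithelial scaling (medians 0.86 and -0.87), 17 and 16 with limma voom, 6 and 23 with DESeq2, and 5 and 8 with the proximal marker level as a covariate. In the interaction 1 was higher and 18 lower, 37 of 38 values were negative, and the median was -1.60 against 0.08 over all genes. By role, 4 of 6 genes of the 2'-5' oligoadenylate synthetase family, 9 of 24 other antiviral effectors and 5 of 8 sensors and signalling factors were lower.

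The interferon-stimulated response element, bound by STAT2 and IRF9, contains GAAANNGAAA. It was searched in the same RefSeq promoters on both strands, where overlapping copies count once per gene, and the search was likewise added after the values were seen. Stretches before the start are shown for 4 genes with a lower interaction, with the matches in capitals. They come from Isg15 (chr4:156200845-156200926, minus strand), Ifit1 (chr19:34640755-34640843, plus strand, where the match is on the opposite strand), Oas1a (chr5:120907526-120907575, minus strand) and Oas3 (chr5:120777695-120777764, minus strand).
Isg15: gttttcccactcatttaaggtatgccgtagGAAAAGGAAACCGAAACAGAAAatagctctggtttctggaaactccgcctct
Ifit1: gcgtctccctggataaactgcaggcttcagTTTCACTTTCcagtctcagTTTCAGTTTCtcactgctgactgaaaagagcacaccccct
Oas1a: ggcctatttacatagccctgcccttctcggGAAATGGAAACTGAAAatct
Oas3: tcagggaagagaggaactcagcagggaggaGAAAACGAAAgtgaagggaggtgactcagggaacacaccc
The motif was in 476 of 12157 tested genes with a promoter (3.92%), in 10 of 14 interferon-stimulated genes with a lower interaction and in 4 of the other 13. That difference between members was not tested.

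Ifit1, an effector that binds foreign RNA (ENSMUSG00000034459, chromosome 19, 34640871 to 34650009, plus strand), had the largest interaction of the list. It read 14.9, 17.6, 25.2 and 32.7 CPM in crypt controls and 29.5, 39.6, 39.8 and 42.4 CPM in H2BdIEC crypts, which overlapped. In tissue it read 19.7, 29.1, 47.5 and 105 CPM in controls and 2.24, 6.73, 7.92 and 7.99 CPM in H2B/p53dIEC mice, which did not. The tissue change was -3.09 ± 0.49 and the interaction -3.84 ± 0.67 (adjusted p = 0.00277 and 0.00803). Isg15, a ubiquitin-like modifier, read 6.06 to 11.7 CPM in crypt controls and 13.9 to 24.9 CPM in H2BdIEC crypts. In tissue it read 9.97, 15.5, 22.4 and 32.6 CPM in controls and 1.78, 2.86, 6.47 and 8.23 CPM in mutants. Both sets separated, in opposite directions, and the test passed in tissue and not in crypts (adjusted p = 0.0128 and 0.105, interaction -3.33 ± 0.62, adjusted p = 0.00942).

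Oas3 and Oas1a make 2'-5' oligoadenylates, which activate RNase L. Oas3 read 30.4 to 49.8 and 56.6 to 91.8 CPM in crypts and 18.7 to 77.9 and 3.87 to 10.98 CPM in tissue (interaction -3.37 ± 0.56, adjusted p = 0.00657). Oas1a read 14.1 to 21.6 and 21.9 to 29.9 CPM in crypts and 15.1 to 24.5 and 2.95 to 10.96 CPM in tissue (interaction -2.24 ± 0.41, adjusted p = 0.00803). In both genes the H2BdIEC crypts lay above and the H2B/p53dIEC tissue below all their controls. Oas1a and Oas1g are near-identical copies, as are Ifit3 and Ifit3b, so their counts may be split between them. Oas2 had a crypt change of 1.38 ± 0.45 and a tissue change of -0.08 ± 0.46 and was called in neither (adjusted p = 0.100 and 0.957). Oasl1 was the gene that rose in crypts (0.82 ± 0.22, adjusted p = 0.0493).

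Among sensors and factors, Ifih1, which encodes the RNA sensor MDA5, had the smallest p of the list. It read 99.5, 106, 121 and 130 CPM in crypt controls, 108, 139, 144 and 148 in H2BdIEC crypts, 73.9, 90.1, 110 and 116 in tissue controls and 39.2, 40.9, 45.7 and 52.8 in H2B/p53dIEC tissue. It fell in tissue (-1.16 ± 0.15, adjusted p = 0.000533), its crypt change of 0.24 ± 0.15 did not pass the test (adjusted p = 0.414), and the interaction was -1.40 ± 0.21 (adjusted p = 0.00230). Irf7, a factor that amplifies interferon genes, read 54.5 to 70.9 and 81.9 to 114 CPM in crypts and 153 to 281 and 50.1 to 127 CPM in tissue (interaction -1.89 ± 0.34, adjusted p = 0.00803). Rtp4, a chaperone of receptors that interferon raises, read 5.98 to 7.996 and 11.3 to 16.5 CPM in crypts and 10.6 to 22.7 and 1.97 to 6.18 CPM in tissue (interaction -2.71 ± 0.42, adjusted p = 0.00260). Stat2 had an interaction of -2.06 ± 0.41 (adjusted p = 0.0125), Ddx58 (RIG-I) of -1.12 and Dhx58 of -1.60. Irf9 (-0.90 ± 0.35, adjusted p = 0.144) was not called.

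Ifitm3, a membrane protein that blocks entry of viruses, went the other way. It read 18.3 to 32.1 and 11.5 to 18.97 CPM in crypts and 20.1, 22.9, 27.2 and 39.3 CPM in tissue controls against 54.7, 56.1, 97.2 and 144 CPM in H2B/p53dIEC tissue (interaction 2.11 ± 0.42, adjusted p = 0.0132). Its close relative Ifitm2 fell in crypts (33.2 to 40.3 against 13.9 to 26.7 CPM) and rose in tissue (18.7 to 21.9 against 33.9 to 43.7 CPM), with an interaction of 1.67 ± 0.24 (adjusted p = 0.00151). Ifitm2 overlaps another annotated gene on the same strand. Of 6 genes of cytosolic DNA sensing, Aim2 rose in crypts (1.90, adjusted p = 0.00563), and its interaction of -1.58 ± 0.48 missed the threshold (adjusted p = 0.0651). In the interaction 0 of the 6 were called in the main fit, 3 at an unadjusted p under 0.05. DESeq2, pan-epithelial scaling, the proximal or sex covariate, and leaving out tissue control 1320 and mutant 1323 each called 1 lower. With limma voom 1 was called higher and 2 lower.

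Tissue control 1316 was highest both for the interferon list (mean log2 CPM 5.35, against 4.09 to 4.68 in the other controls) and for 14 markers of T cells and intraepithelial lymphocytes (4.14 against 1.09 to 2.82). That marker list spanned 0.65 to 3.17 in H2B/p53dIEC tissue and, in crypts, 1.90 to 3.996 in controls and 2.66 to 4.19 in H2BdIEC mice, and its part in the result was not tested. In whole tissue, fewer cells of a type and less RNA per cell cannot be told apart. The 18 lower calls became 10 without crypt control Crypt_972 and 11 without tissue control 1321. With each set fitted alone, 15 rose in crypts and 6 fell in tissue.

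**Figure D3:**
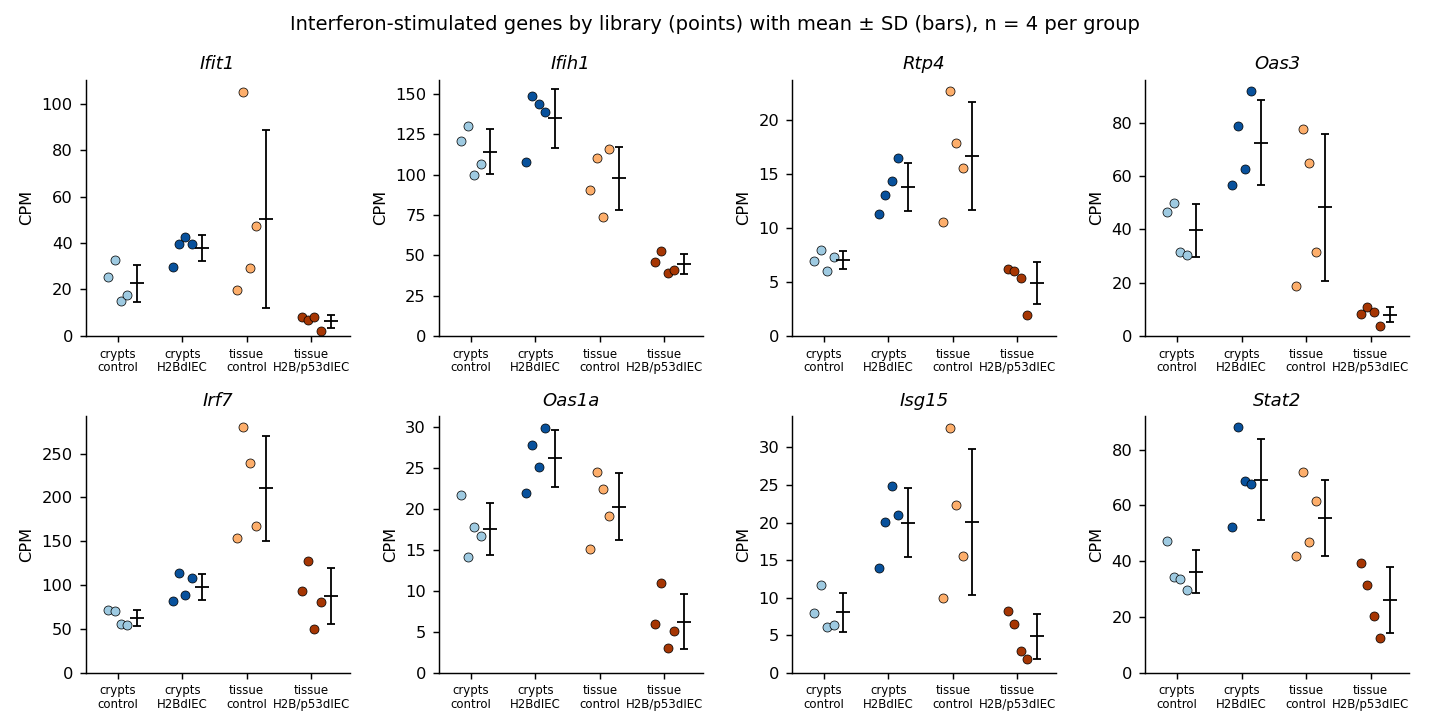
Levels in CPM of 8 interferon-stimulated genes in the 16 libraries, drawn as for the p53 targets. In tissue all H2B/p53dIEC points lie below all control points for each of the 8 genes, and the control points spread widely, as in Ifit1 from 19.7 to 105 CPM.

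Outside these lists, 10 genes with the largest positive and 10 with the largest negative interaction were taken among called protein-coding genes with an average log2 CPM of at least 3 and no overlap of groups in 1 set or both. A gene could reach that level through the 1 group where it was high. Serpina3n did so through H2B/p53dIEC tissue, for example, and Akp3 through H2BdIEC crypts. The inclusion of such genes thus adds no support for their change. Apoa4, an apolipoprotein of fat absorption made mainly in the upper small intestine, read 3707 to 8824 and 8729 to 11522 CPM in crypts, but 23.8, 35.0, 78.8 and 94.0 CPM in tissue controls against 287, 988, 7349 and 35848 CPM in H2B/p53dIEC tissue. The interaction was 6.92 ± 1.53 (adjusted p = 0.0219). Acot12, an acyl-CoA thioesterase, read 37.4 to 83.9 CPM in crypts, 0.369 to 2.24 CPM in tissue controls and 9.50, 28.5, 57.3 and 157 CPM in mutants (5.90 ± 1.03, adjusted p = 0.00870). Cyp2b10, a cytochrome P450 (5.05 ± 1.33, adjusted p = 0.0451), was not called in 15 of 28 alternative fits. In these 3 genes the largest tissue value came from mutant 1323.

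The 10 proximal small intestine markers tested were at a mean log2 CPM of 1.93 to 2.46 in tissue controls and 2.81, 3.13, 4.45 and 5.93 in H2B/p53dIEC tissue, the last in 1323. In crypts they were at 5.68 to 6.39 in controls and 6.82 to 7.63 in H2BdIEC. The 9 distal markers tested were at 4.59 to 6.92 in crypt controls and 8.87 to 8.95 in tissue controls. Controls of the 2 sets thus differed in the level of both marker lists. The piece of intestine sampled and the genotype cannot be told apart on either side for these markers. With the proximal level as a covariate 583 genes were higher and 492 lower, with 17 p53 targets and 21 interferon-stimulated genes lower, and without tissue control 1320 and mutant 1323 15 and 18 were lower.

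Serpina3n, an acute phase protease inhibitor, read 3.42 to 6.71 CPM in tissue controls and 26.05, 33.0, 117 and 117 CPM in mutants, and under 1 CPM in all crypts (interaction 7.18 ± 1.64, adjusted p = 0.0231). Its crypt side rests on 20 counts over the 4 controls and 1 over the 4 H2BdIEC libraries, so the fitted interaction is no firm size. It ran from 6.09 to 9.30 over 28 alternatives, and the call was lost in 5. Slc39a8, a zinc and manganese importer, read 20.5 to 29.7 and 10.8 to 15.0 CPM in crypts and 5.73 to 8.95 and 16.2 to 193 CPM in tissue (4.18 ± 0.88, adjusted p = 0.0179). Both sets of Slc39a8 separated, in opposite directions. Pnliprp2, a pancreatic lipase-related protein (4.67), and Zbtb16, a zinc finger factor (4.59), were also higher, the call of Zbtb16 being lost in 10 of 28 alternatives. Gsdmc2 and Gsdmc3, members of the gasdermin C family, fell in crypts, were not called in tissue and were higher in the interaction. Gsdmc2 went from 15.3, 41.4, 111 and 363 to 2.13, 2.22, 2.30 and 3.14 CPM in crypts and from 14.5 to 27.3 to 4.69 to 15.2 CPM in tissue. Both genes have near-identical copies, and their interaction calls (adjusted p = 0.0308 and 0.0499) were lost in 11 and 19 of 28 alternatives. The histone gene Hist2h2ac was called with 0 counts in the 4 tissue controls and 1 to 2 counts in each mutant, against 381 to 1784 in crypts, so no fold is given for tissue. It passed the level rule through crypts alone, and its call was lost in 19 of 28 alternatives, DESeq2 among them. The crypt and tissue files list different numbers of genes, and whether this gene was counted alike in both was not tested.

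Among the lower genes, 2 had narrow errors. Dio1, a deiodinase of thyroid hormone, read 26.8 to 62.8 and 52.7 to 62.5 CPM in crypts and fell in tissue from 36.1, 40.3, 50.6 and 80.7 to 2.14, 3.17, 3.18 and 5.40 CPM (interaction -4.36 ± 0.43, adjusted p = 0.000104). Meis2, a homeobox factor, rose in crypts from 0.629, 0.881, 1.18 and 1.30 to 6.73, 10.6, 11.7 and 11.9 CPM. In tissue it overlapped, at 6.71 to 19.1 CPM in controls and 11.8 to 12.4 CPM in mutants (interaction -3.62 ± 0.35, adjusted p = 6.19e-05). That overlap came from the shallow tissue control 1320 alone, whose 6.71 CPM is 3 counts. The other tissue controls lay above all mutants. Akp3, an intestinal alkaline phosphatase, rose in crypts from 3.19 to 14.4 CPM to 164, 395, 1755 and 2053 CPM and was at most 1.56 CPM in tissue (-6.67 ± 1.17, adjusted p = 0.00870). The iron exporter gene Slc40a1 rose in crypts from 6.23 to 11.7 CPM to 47.7 to 243 CPM and read 76.7 to 115 CPM in tissue controls and 5.71 to 79.0 CPM in mutants (-5.20 ± 0.89, adjusted p = 0.00829). S100g, Reg1 and Slc37a2 also rose in crypts and were not called in tissue (interactions -4.20, -3.97 and -3.72), while Ifit1bl1 fell in tissue (-4.28). Acta1, an actin of muscle (-5.61), read 58.6 to 103 CPM in H2BdIEC crypts and 6.78 to 12.3 CPM in their controls. Calls of S100g and Reg1 were each lost in 18 of 28 alternatives, the proximal level as a covariate among them. The call of Slc37a2 was lost in 11, that of Ifit1bl1 in 10, and those of Acta1 and Akp3 in 1 each. Slc40a1 is itself on the proximal marker list, which was at 6.82 to 7.63 in H2BdIEC crypts and 5.68 to 6.39 in their controls. The part of region in the crypt rises of these genes was not tested.

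Acinar pancreas markers moved with the crypt side: 5 of 7 tested rose in H2BdIEC crypts, at a mean log2 CPM of 0.51, 0.70, 1.05 and, in Crypt_976, 5.72 against -2.42 to -1.92 in controls. In tissue they were at -3.58 to -1.44. Gastric and Brunner gland genes were at 2.37 to 2.89 in H2BdIEC crypts and 0.43 to 0.88 in controls, with 3 of 6 risen, and Ctse was lower in the interaction (-3.16, adjusted p = 0.0278). Crypt control Crypt_981 had 10.4% mitochondrial counts against 4.33% to 5.09% in the other controls and 9.30% to 15.7% in H2BdIEC crypts. The part of these in the crypt-side changes was not tested.

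Genes called in opposite directions were 11 that rose in crypts and fell in tissue and 14 that did the reverse, of which 15 met the rules on level and overlap. Tfcp2l1, an epithelial transcription factor, fell in crypts from 68.4, 92.8, 95.4 and 98.9 to 36.7, 36.7, 38.1 and 45.3 CPM and rose in tissue from 81.6, 114, 129 and 134 to 177, 219, 253 and 390 CPM (interaction 2.36 ± 0.30, adjusted p = 0.000692). The transferrin receptor gene Tfrc fell in crypts from 305 to 433 CPM to 161 to 256 CPM and rose in tissue from 157 to 184 CPM to 243 to 668 CPM (2.19 ± 0.34, adjusted p = 0.00263). Tkfc, a kinase of fructose metabolism, rose in crypts from 225 to 334 CPM to 440 to 491 CPM and fell in tissue from 266 to 345 CPM to 163 to 246 CPM (-1.44 ± 0.22, adjusted p = 0.00225). Ccng1, Dglucy and Ifitm2, described above, complete the 6 with the largest interaction.

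Genes called in the same direction in both sets show what the 2 settings shared. The rule set no condition on the interaction, and the 6 genes named had no interaction call in the main fit. Of 30 that met the rule, the metallothionein gene Mt1 rose from 30.2, 52.7, 53.3 and 60.7 to 258, 342, 353 and 379 CPM in crypts and from 65.6, 78.8, 91.8 and 248 to 766, 1096, 1454 and 2685 CPM in tissue. The log2 changes were 2.76 ± 0.44 and 3.61 ± 0.46, and their difference of 0.85 ± 0.59 did not pass the test (adjusted p = 0.435). Arnt2, a partner of PAS-domain factors, rose by 1.71 ± 0.23 and 1.87 ± 0.25. The laminin gene Lama5 rose by 2.23 ± 0.22 and 1.26 ± 0.23, and Gsta1, a glutathione transferase, by 1.86 ± 0.35 and 2.55 ± 0.41. Foxq1 (1.77 and 2.38) and Tmem189 (1.35 and 1.48), which overlaps another annotated gene on the same strand, complete the 6. Of 19 NRF2 targets, which include the glutathione transferases, 5 rose in crypts and 5 in tissue, and Gsta3 was lower (-2.63) and Slc7a11 higher (3.50) in the interaction.

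**Figure D4:**
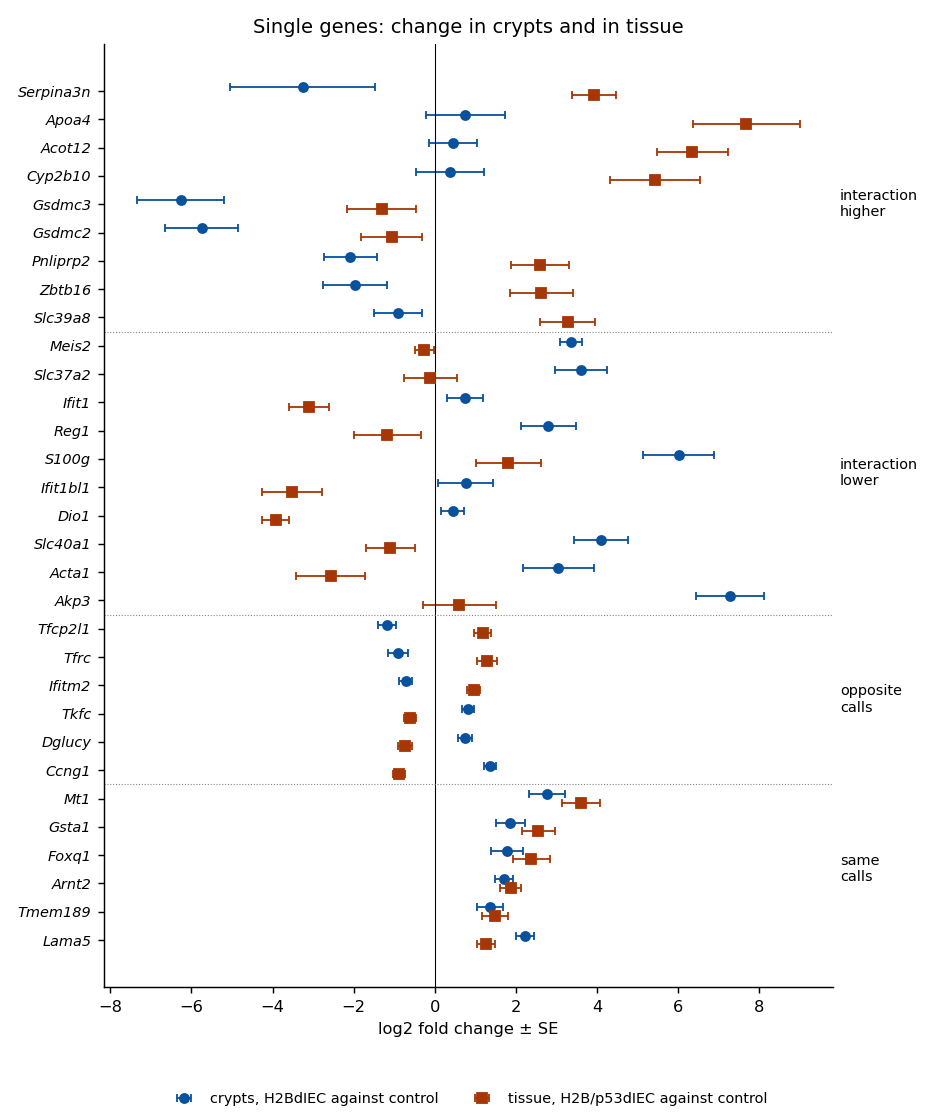
Log2 fold change ± SE in crypts (blue circles) and in tissue (brown squares) for the genes named by size, by opposite calls and by shared calls. Hist2h2ac is left out. The 2 symbols lie on opposite sides of 0 for the 6 opposite genes and on the same side for the 6 shared genes.

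Lists of epithelial lineages had few calls, and their number varied with the fit. Of 18 crypt stem cell genes, Lgr5, the Wnt-amplifying receptor, and Smoc2 fell in crypts and were higher in the interaction. Lgr5 read 14.3, 18.2, 21.6 and 22.6 CPM in crypt controls and 4.40, 4.46, 5.50 and 8.72 CPM in H2BdIEC crypts, and 4.31 to 8.95 and 4.42 to 11.3 CPM in tissue (interaction 2.17 ± 0.43, adjusted p = 0.0105). Smoc2 read 83.0 to 89.5 and 35.5 to 57.3 CPM in crypts and 43.3 to 50.8 and 46.3 to 58.8 CPM in tissue (1.20 ± 0.19, adjusted p = 0.00273). The list's median interaction was 0.56, and 0.33 under pan-epithelial scaling, and limma voom called 11 falls in crypts. All 15 Paneth cell genes had a negative crypt value (median -1.72) and a positive interaction (median 1.93). Of them 3 fell in crypts (11 with DESeq2, 13 with limma voom, 5 under pan-epithelial scaling and 0 with the proximal level as a covariate), among them Defa17 (-2.32) and Defa5 (-1.72), both of a family of near-identical genes. In the interaction 0 of the 15 were called by edgeR, 12 at an unadjusted p under 0.05, while DESeq2 called 4 higher, limma voom 5 and edgeR with the proximal level as a covariate 5. Of 14 goblet cell genes 4 fell in crypts (10 with limma voom and 1 with the proximal level as a covariate), with Muc2, the main gel-forming mucin, at -1.12, and Galnt12 was higher in the interaction (1.08 ± 0.27, adjusted p = 0.0283), where 0 to 5 were called over the alternatives. Of 13 enteroendocrine genes 4 rose in tissue, and Chga (chromogranin A) and Pyy were higher in the interaction (1.15 and 2.85), though 0 were called under pan-epithelial scaling.

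Markers of blood vessels and erythrocytes were higher in H2B/p53dIEC tissue. Of 10 endothelial genes 7 rose in tissue (2 without tissue control 1320 and mutant 1323, and 1 with the proximal level as a covariate), and Vwf (2.83 ± 0.57, adjusted p = 0.0132) and Esam (1.78 ± 0.45, adjusted p = 0.0303) were higher in the interaction. All 5 erythrocyte genes rose in tissue (1 with that covariate), and Alas2 and Hba-a2 were higher in the interaction (4.90 and 4.32). Smooth muscle genes read a mean log2 CPM of 8.07 to 8.67 in tissue controls and 7.15 to 7.85 in mutants, with 2 of 11 fallen. Endothelial markers were low in crypts, where they summed to 10.1 to 14.5 CPM against 86.2 to 313 CPM in tissue. Erythrocyte genes were not lower in crypts than in tissue controls. They summed to 5.9017 to 23.986 CPM in crypt controls and 12.171 to 89.798 CPM in H2BdIEC crypts. In tissue they summed to 5.7801 to 10.094 CPM in controls and 80.499 to 599.55 CPM in H2B/p53dIEC mice. The median tissue and interaction values were 1.11 and 0.75 for endothelial, 5.02 and 4.01 for erythrocyte and -0.70 and -0.09 for smooth muscle genes.

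**Figure D5:**
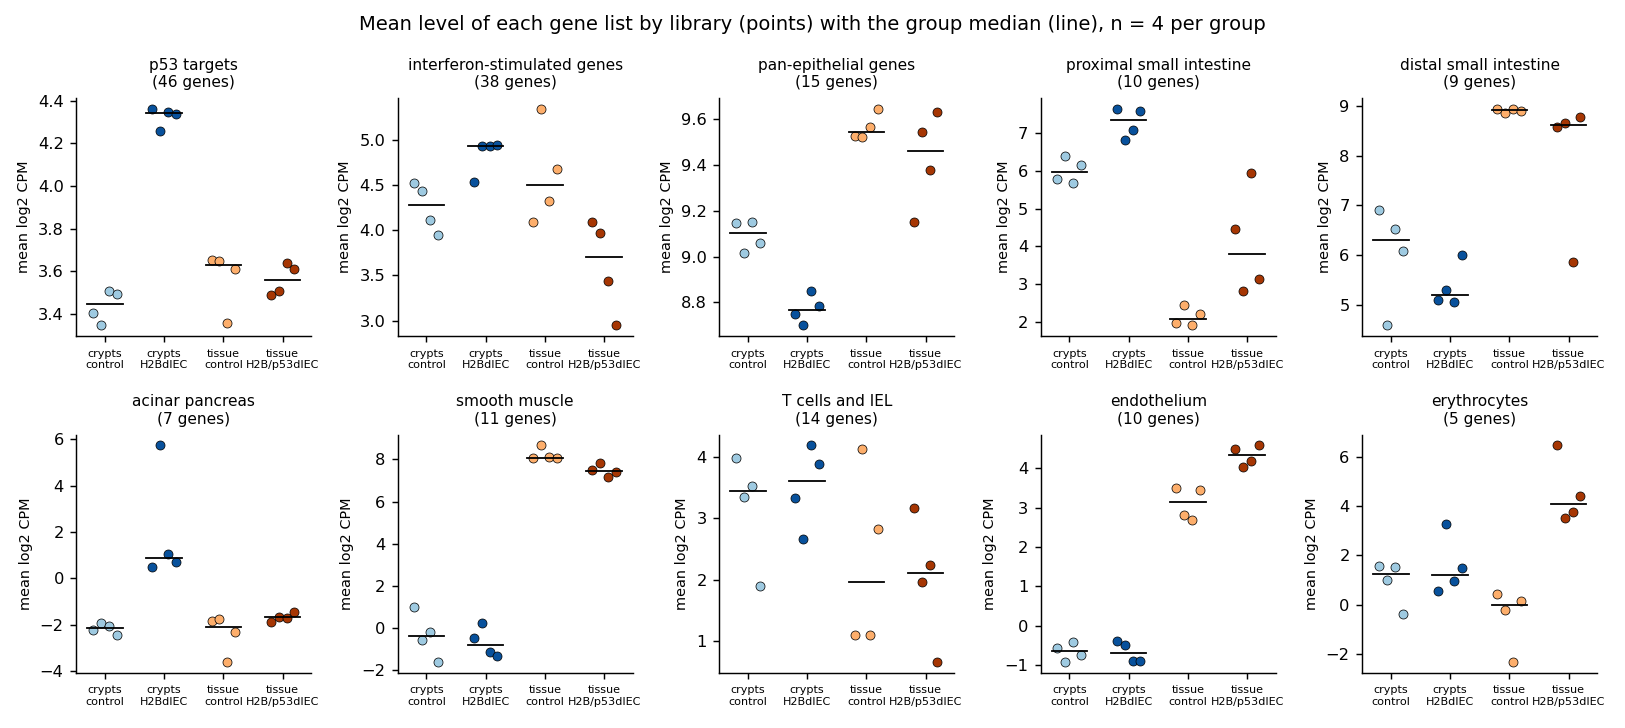
Mean log2 CPM of 10 gene lists in the 16 libraries. Points are libraries and lines are group medians, and the vertical axes differ between panels and do not start at 0. The p53 list is high in H2BdIEC crypts alone (4.26 to 4.36), the interferon list lowest in H2B/p53dIEC tissue (2.95 to 4.09), and proximal markers are above controls in both deleted groups.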

How the data were processed

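RNA was measured in 16 libraries of 4 groups, placed by genotype and tissue in the labels. The deposited values are raw read counts per Ensembl gene, made by the authors. The submitters' processing notes name, with no roles or order, HTSeq, TopHat2 2.0.14, Trimmomatic 0.36, cutadapt (1.9 and 1.5) and the build GRCm38, and per the labels' protocols libraries were stranded mRNA from 500 ng of total RNA. The annotation release and counting settings are not given in the sources used here. Crypt files list 47729 genes and tissue files 49585, of which the 47469 shared were used. HTSeq summary lines were left out. Symbols and places came from GENCODE M21, which matched 47224 genes.

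All 16 libraries were fitted together with edgeR 4.0.16 (R 4.3.3): filterByExpr, TMM, 1 coefficient per group, robust quasi-likelihood test, so that crypts and tissue share 1 estimate of the spread. The Benjamini-Hochberg adjustment ran over 17697 genes, and an adjusted p under 0.05 was called. The SE is the log2 change over the square root of F, and log2 CPM has a prior count of 2. The libraries carry separate numbers, read as separate mice, and p values measure the spread between these mice, and 0 pairs of libraries of a group held identical counts. Counts and the precision they give are lowest in tissue control 1320. On data simulated at these depths the interaction test recovered 26 of 100 changes of log2 1 and 65 of 100 of log2 2, with 4 false calls of 95.

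Members and gene lists were chosen with earlier results of these data known. Genes were named by a rule: the targeted genes, the 10 largest interactions each way, 6 shared, 6 opposite, and 4 genes per described list by smallest interaction p (8 each for the p53 and interferon lists), leaving out unnamed models, Xist, Y-linked and antigen receptor genes. Members named beyond it were chosen after their values were seen. Alternatives used DESeq2 1.42.0, limma 3.58.1, other scalings, filters, covariates and leaving out libraries. The covariate for sex and the promoter searches were added after the values were seen. Figures were drawn with matplotlib 3.10.9. Some genes are not reported here.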

Additional observations from a re-analysis of the deposited data

Results flagged for a closer look

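Changes in crypts and tissue differed by the interaction test, with a higher interaction for 521 genes (2.94% of genes tested) and a lower one for 429 (2.42%). The lower ones included 16 p53 targets and 18 interferon-stimulated genes. A lower interaction is not itself a fall in tissue, where 4 p53 targets and 21 interferon-stimulated genes fell. The largest positive interactions, as log2 differences, were those of Serpina3n (a fitted 7.18 that rests on 1 count over the 4 H2BdIEC crypt libraries), Apoa4 (6.92), Acot12 (5.90), Cyp2b10 (5.05), Gsdmc3 (4.95), Gsdmc2 (4.69), Pnliprp2 (4.67), Zbtb16 (4.59), Slc39a8 (4.18) and Hist2h2ac, whose fitted 3.91 rests on 1 to 2 counts per library in tissue. The largest negative ones were those of Akp3 (-6.67), Acta1 (-5.61), Slc40a1 (-5.20), Dio1 (-4.36), Ifit1bl1 (-4.28), S100g (-4.20), Reg1 (-3.97), Ifit1 (-3.84), Slc37a2 (-3.72) and Meis2 (-3.62). Genes called in opposite directions in the 2 sets had interactions of 2.36 (Tfcp2l1), 2.19 (Tfrc), 1.67 (Ifitm2), -1.44 (Tkfc), -1.49 (Dglucy) and -2.24 (Ccng1).

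A single library stood apart from the other 3 of its group, by the gap to its nearest neighbour over the range, in 25 of 302 groups of values examined. The cutoff gives about 1 in 20 by chance for independent normal values. These values share libraries, and many genes were chosen by their values, so no comparison with chance is made. Tissue mutant 1323 stood apart for Cyp2b10 (465 against 12.8 to 41.5 CPM), Slc39a8 (193.2 against 16.2 to 31.9), Foxq1 (18.6 against 4.96 to 6.49) and distal markers (mean log2 CPM 5.86 against 8.59 to 8.78). Tissue control 1320, with 401365 counts, did so for Rnaseh2b (20.1 against 10.8 to 11.8 CPM) and for the mean log2 CPM of p53 targets (3.36 against 3.61 to 3.65), RNase H genes (3.25 against 3.98 to 4.09) and S phase genes (2.93 against 3.50 to 3.61). Crypt control Crypt_981 did so for mitochondrial genes (mean log2 CPM 6.45 against 5.73 to 5.74, and 10.4% of counts against 4.33% to 5.09%) and for reads HTSeq called ambiguous (4.69% of gene counts against 0.834% to 0.912%). Crypt H2BdIEC library Crypt_976 did so for acinar pancreas genes (5.72 against 0.51 to 1.05), Tfcp2l1 (45.3 against 36.7 to 38.1 CPM) and Serpina3n (0.0821 CPM against 0). The rest were Zbtb16 (12.9 CPM) and Tfrc (305.4 CPM) in crypt control Crypt_972, Foxq1 (8.23 CPM) in crypt control Crypt_971, Gsdmc2 (3.14 CPM) in H2BdIEC library Crypt_979, the interferon list (4.54) in H2BdIEC library Crypt_975, Zbtb16 (11.1 CPM) in tissue control 1321, Acta1 (259.2 CPM) and smooth muscle markers (8.67) in tissue control 1316, Mt1 (247.7 CPM) in tissue control 1315, and Acta1 (37.6 CPM) in mutant 1322 and Meis2 (12.4 CPM) in mutant 1319.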

How the results depend on the processing

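Of 47 named genes followed, 39 were called in the interaction, 0 of these changed sign under the 28 alternatives and 26 stayed called under each. Arnt2 (-0.06 to 0.39), Foxq1 (-0.25 to 0.94) and Tmem189 (-0.61 to 0.33), not called, took both signs. The counts were 521 higher and 429 lower: DESeq2 gave 784 and 735, limma voom with library weights 1070 and 943, pan-epithelial scaling 227 higher, no low-count filter 276 lower and sex as a covariate (chosen after seeing the data) 269 lower. Leaving out 1 library gave 214 to 582 higher and 169 to 556 lower, 10 to 16 lower p53 targets and 10 to 22 lower interferon-stimulated genes, lowest without crypt control Crypt_972 for both counts of genes and for interferon-stimulated genes, and without tissue control 1321 for p53 targets. The counts fell by over 1.5 times without crypt control Crypt_970 (283 higher, 243 lower), Crypt_972 (214, 169), H2BdIEC library Crypt_976 (295, 239), Crypt_979 (300, 210), tissue control 1316 (253, 280) and 1321 (263, 185), and for lower genes also without crypt control Crypt_981 (263) and tissue control 1315 (274). The median interaction stayed negative for both lists, from -0.81 to -0.58 for p53 targets and from -1.82 to -1.19 for interferon-stimulated genes. Fitted alone, crypts gave 753 rises and 711 falls and tissue 307 and 127, so calls within 1 set depend on the spread estimate. The low counts of tissue control 1320 limit genes near the floor. No paired analysis was possible because the 4 groups share no mouse and no replicate number.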

Other observations

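Of 20 S phase and 26 G2/M genes, 0 were called in the interaction by edgeR, with 2 and 0 at an unadjusted p under 0.05, and DESeq2 called 1 and 0. Their median interactions were 0.54 and -0.01 (0.30 and -0.26 under pan-epithelial scaling). In tissue 1 S phase gene rose and 1 G2/M gene fell, near the shares of all genes tested (5.39% rose and 4.26% fell). Rnaseh2a, which encodes the catalytic subunit of RNase H2, fell in crypts (-0.51, adjusted p = 0.0374), and its interaction of 0.66 ± 0.19 passed the test (adjusted p = 0.0483, edgeR quasi-likelihood test), but not under pan-epithelial scaling, with sex as a covariate or without tissue control 1320 and mutant 1323. Rnaseh2a overlaps another annotated gene on the same strand.

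Of 11 class I antigen presentation genes B2m (-0.98) and Erap1 (-0.48) fell in tissue, where 4.26% of all genes tested fell. Under pan-epithelial scaling, or with the proximal level or sex as a covariate, 0 of the 11 fell. Of 7 class II genes 0 were called in any contrast by edgeR or DESeq2, and 0 had an unadjusted p under 0.05. Of 14 fetal-like and YAP genes 5 rose in tissue (5.39% of all genes tested did), among them Clu (3.93), Il33 (1.67) and Anxa1 (1.26). In the interaction 0 were called in the main edgeR fit (2 at an unadjusted p under 0.05) or by DESeq2. Clu stood there at 2.43 ± 1.15 (edgeR adjusted p = 0.233). The proximal level as a covariate, and leaving out tissue control 1320 and mutant 1323, each called 1 higher. With limma voom 1 was called lower. Of 14 myeloid genes 3 rose in tissue, against 5.39% of all genes tested.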
